A study of Homo sapiens with 12 samples.

Results

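The epithelial-mesenchymal transition (EMT) genes described here were 10 of the 60660 genes quantified in this series: CDH1, CDH2, VIM, ZEB1, ZEB2, SNAI1, SNAI2, TWIST1, FN1 and ESRP1. They were chosen by name, as classical markers and regulators of EMT, and not by their values, and each symbol matched 1 gene. The study transfected human prostate cancer (PCa) cells with a synthetic mimic of the PIWI-interacting RNA piR-4447944 and assayed, among other traits, their migration and invasion. mRNA sequencing was performed on 4 groups of 3 libraries: LNCaP cells with NC-mimic, LNCaP cells with piR-4447944 mimic, 22Rv1 cells with NC-mimic and 22Rv1 cells with piR-4447944 mimic. All 4 groups were kept under androgen-deprived conditions, which the paper does not specify further for the sequenced cells. Its growth assays used medium with CS-FBS, charcoal-stripped fetal bovine serum, which is depleted of androgens. Its apoptosis assays used 10% CS-FBS with enzalutamide. LNCaP cells, which are androgen-sensitive, come from a metastasis to a lymph node, and 22Rv1 cells come from a xenograft that relapsed after castration. Each line stands for 1 tumor, the mimic was delivered with a lipid reagent, and a line and its culture cannot be told apart. The paper makes a general statement of at least 3 independent experiments for the figure that holds the sequencing. The sample labels and sequencing methods do not say whether the 3 libraries of a group came from separate cultures. The p-values therefore measure only the spread between these samples, which may be technical.

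In EMT, epithelial cells loosen their junctions and take on a motile, matrix-producing state, and carcinoma cells can use parts of this program when they invade. E-cadherin, the product of CDH1, holds neighbouring epithelial cells together, whereas N-cadherin (CDH2), vimentin (VIM) and fibronectin (FN1) are typical of mesenchymal cells. The transcription factors of the ZEB, SNAIL and TWIST families bind E-boxes and repress epithelial genes such as CDH1, while the splicing factor ESRP1 maintains epithelial isoforms and the miR-200 family of miRNAs restrains ZEB1 and ZEB2.

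Libraries held 12161091 to 22179601 expected counts. Among luminal prostate markers, KLK3, which encodes prostate-specific antigen, had means of 2043 and 1909 TPM (a transcript level scaled by transcript length and to a fixed total) in LNCaP and of 49.6 and 31.9 TPM in 22Rv1, with NC-mimic and piR-4447944 mimic respectively. The luminal keratin KRT8 had group means between 414 and 518 TPM. The sum of 4 basal markers lay between 0.14 and 5.06 TPM, that of 6 leukocyte markers between 1.57 and 11.1 TPM and that of 4 endothelial markers between 0 and 1.89 TPM, and the endothelial cadherin CDH5 was at 0 in all libraries. The sum of 7 fibroblast markers lay between 8.10 and 45.8 TPM. By group means most of it came from COL1A1, though not in every 22Rv1 library. In 22Rv1, replicate 3 of both groups stood apart from replicates 1 and 2, which touches VIM, FN1 and SNAI2, and their values are therefore given with and without these libraries.

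By the median TPM of a line, CDH1 was the most abundant member in both lines, followed by FN1 in LNCaP and by ESRP1 in 22Rv1. CDH1 (chr16:68737292-68835537, plus strand, hg38) was present at 261, 262 and 221 TPM in LNCaP with NC-mimic and at 235, 255 and 259.8 TPM in those with piR-4447944 mimic. In 22Rv1 it was present at 138, 107 and 151 TPM with NC-mimic and at 106, 126 and 164 TPM with piR-4447944 mimic. Every LNCaP library was thus above every 22Rv1 library, whereas the NC and piR groups of each line overlapped. The group means were 248 ± 23.1 and 250.1 ± 12.9 TPM in LNCaP and 132 ± 22.2 and 132 ± 29.7 TPM in 22Rv1 (SD, n = 3 for each group). ESRP1, the epithelial splicing factor, showed the opposite order of the lines. Its TPM were 31.6, 40.4 and 25.8 in LNCaP with NC-mimic, and 38.4, 36.6 and 36.0 with piR-4447944 mimic. In 22Rv1 they were 61.3, 51.8 and 56.2 with NC-mimic, and 63.4, 66.2 and 79.2 with piR-4447944 mimic. The lowest 22Rv1 library was above the highest LNCaP library, and within 22Rv1 the 3 piR libraries were above the 3 NC libraries in TPM, but not in CPM (counts scaled for library size and not for length), in which 135 with piR-4447944 mimic lay below 137 with NC-mimic.

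The mesenchymal markers differed in their order between the lines. CDH2 (chr18:27932879-28177946, minus strand) had 0 counts in all 6 LNCaP libraries, which allows up to 0.0288 CPM over the line, counting error only. In 22Rv1 it was detected in every library, at 3.07, 3.32 and 5.77 TPM with NC-mimic and at 4.03, 2.38 and 4.74 TPM with piR-4447944 mimic. The cadherin pair was thus CDH1 alone in LNCaP, and CDH1 with a low level of CDH2 in 22Rv1. VIM (chr10:17228241-17237593, plus strand), the intermediate filament of mesenchymal cells, was at 5.33, 6.35 and 7.11 TPM in LNCaP with NC-mimic and at 6.36, 5.03 and 6.95 TPM with piR-4447944 mimic. In 22Rv1 it was at 26.6, 19.9 and 87.0 TPM with NC-mimic and at 23.0, 30.0 and 93.9 TPM with piR-4447944 mimic. The third library of each 22Rv1 group was far above the other two, and even the lowest 22Rv1 library exceeded every LNCaP library. FN1 (chr2:215360440-215436073, minus strand), a glycoprotein of the extracellular matrix, was the mesenchymal gene that was high in LNCaP, at 137, 139.8 and 116 TPM with NC-mimic and at 129.5, 114 and 126 TPM with piR-4447944 mimic. In 22Rv1 it was at 5.49, 3.84 and 15.6 TPM with NC-mimic and at 9.01, 3.62 and 36.1 TPM with piR-4447944 mimic. The lines did not overlap for FN1, and replicate 3 was again the highest library of each 22Rv1 group.

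**Figure D1:**
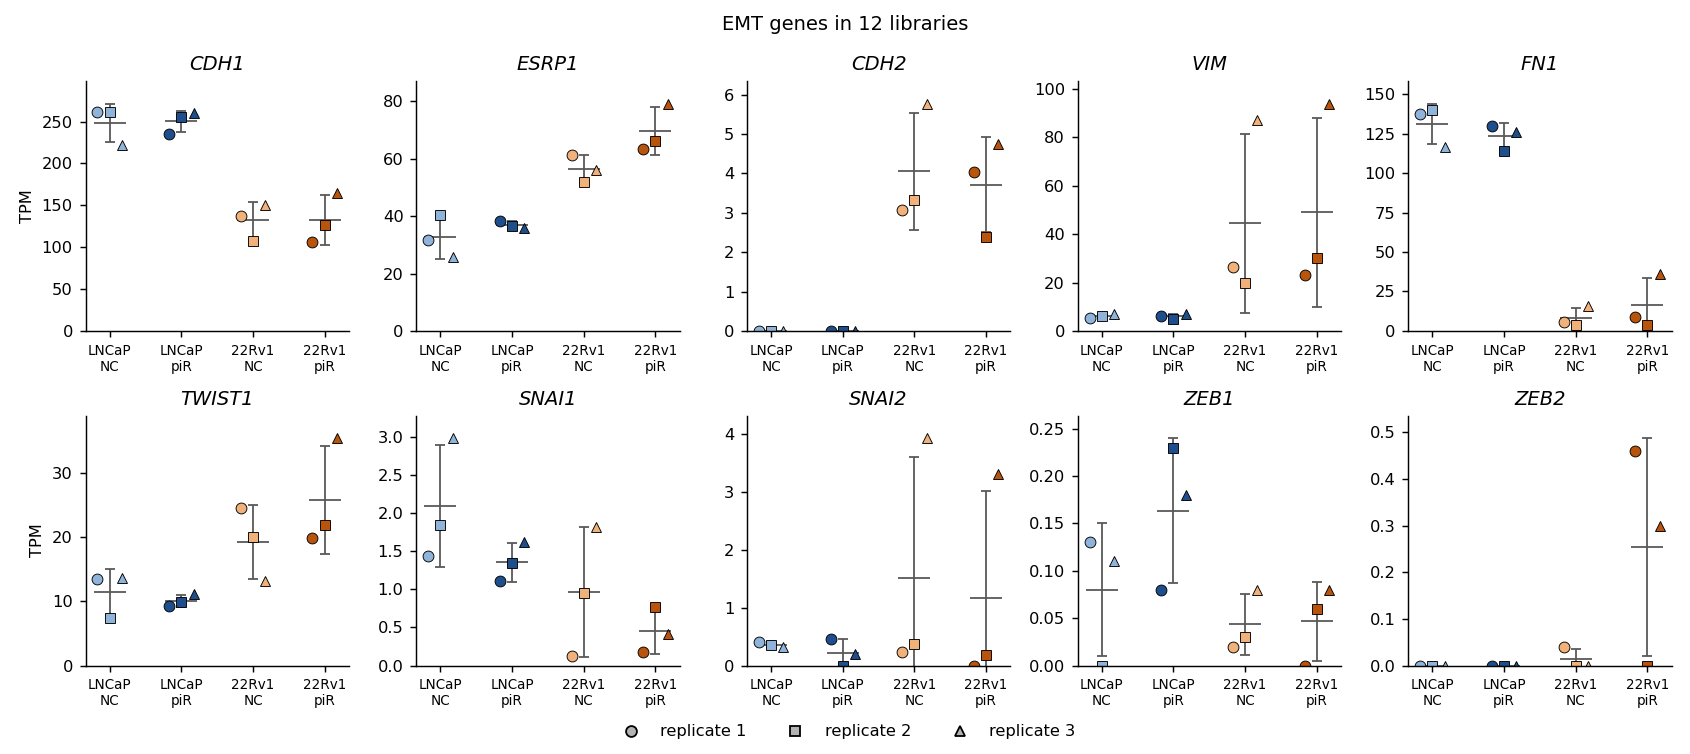
TPM of the 10 EMT genes in the 12 libraries, 1 panel per gene with its own linear axis from 0. Points are libraries, with the marker shape giving the replicate number, horizontal bars are group means and error bars are SD (n = 3), not drawn below 0. CDH1 and FN1 were higher in LNCaP, CDH2, VIM, ESRP1 and most TWIST1 values were higher in 22Rv1, and within each 22Rv1 group the triangle (replicate 3) was the highest point for VIM, FN1 and SNAI2.

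Promoter sequences are shown for CDH2, VIM and FN1 because these mesenchymal genes differed in opposite directions between the lines. The RefSeq table (GRCh38.p14) held windows for 5 of the 10 members (CDH2, VIM, FN1, ZEB1 and ZEB2), each running from 250 bases before to 50 bases after a transcription start. CDH1, SNAI1, SNAI2, TWIST1 and ESRP1 had no entry. The E-box CANNTG, which reads the same on both strands, occurred in 68.7% of 35116 windows. The motif TGACGTCA, the palindromic cAMP response element, occurred in 1.85% of them. Matches are printed in capitals, and each window is written 5′ to 3′ on the strand of the gene.
FN1, chr2:215436019-215436318, minus strand: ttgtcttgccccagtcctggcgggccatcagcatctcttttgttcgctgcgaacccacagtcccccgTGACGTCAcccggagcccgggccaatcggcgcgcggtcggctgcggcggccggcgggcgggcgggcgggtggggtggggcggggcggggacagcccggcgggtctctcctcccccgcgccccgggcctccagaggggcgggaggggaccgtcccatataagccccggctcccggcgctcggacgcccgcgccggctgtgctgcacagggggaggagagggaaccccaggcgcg
VIM, chr10:17227991-17228290, plus strand: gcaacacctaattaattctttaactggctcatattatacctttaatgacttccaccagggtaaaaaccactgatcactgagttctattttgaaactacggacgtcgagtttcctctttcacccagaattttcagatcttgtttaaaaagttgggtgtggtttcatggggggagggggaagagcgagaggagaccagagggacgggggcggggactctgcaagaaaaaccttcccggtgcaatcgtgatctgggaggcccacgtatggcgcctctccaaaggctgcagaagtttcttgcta
CDH2, chr18:28177081-28177380, minus strand: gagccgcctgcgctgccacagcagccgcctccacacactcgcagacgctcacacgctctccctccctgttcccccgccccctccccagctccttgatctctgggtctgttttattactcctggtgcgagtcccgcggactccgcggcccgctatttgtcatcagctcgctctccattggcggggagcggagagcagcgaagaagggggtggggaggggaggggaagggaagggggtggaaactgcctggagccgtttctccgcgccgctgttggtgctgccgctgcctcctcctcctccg
The FN1 window held 1 match to TGACGTCA and 0 to CANNTG, whereas the VIM window and this CDH2 window held 0 of either. A second CDH2 window of the table (chr18:28036592-28036891, minus strand) held 1 match to CANNTG. A match is a description of the letters in a window and does not show that a factor binds there.

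Of the transcription factors, TWIST1 was the most abundant in both lines. TWIST1 (chr7:19020991-19117636, minus strand), a basic helix-loop-helix factor, was at 13.5, 7.36 and 13.5 TPM in LNCaP with NC-mimic and at 9.29, 9.86 and 11.1 TPM with piR-4447944 mimic. Its TPM in 22Rv1 were 24.45, 20.1 and 13.1 with NC-mimic and 19.9, 21.9 and 35.3 with piR-4447944 mimic. The lines overlapped in TPM through the third NC library of 22Rv1, but not in CPM. SNAI1 (chr20:49982980-49988886, plus strand), a zinc finger repressor of CDH1, was at 1.44, 1.85 and 2.98 TPM in LNCaP with NC-mimic and at 1.11, 1.34 and 1.62 TPM with piR-4447944 mimic. In 22Rv1 it was at 0.12, 0.95 and 1.82 TPM with NC-mimic and at 0.18, 0.77 and 0.41 TPM with piR-4447944 mimic, on 3 to 26 counts per library. The 2 lines overlapped with NC-mimic, while the 3 libraries of 22Rv1 with piR-4447944 mimic were below those of LNCaP. SNAI2, its relative, was between 0 and 0.46 TPM in LNCaP and in replicates 1 and 2 of 22Rv1. It reached 3.92 TPM (30 counts) and 3.30 TPM (81 counts) in replicate 3 of 22Rv1, in the NC and the piR group respectively.

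ZEB1 and ZEB2, the zinc finger homeobox repressors of epithelial genes, were at the edge of detection. ZEB1 (chr10:31318495-31529814, plus strand) had between 0 and 8 counts per library and no more than 0.23 TPM, with 18 counts over the 6 LNCaP and 13 over the 6 22Rv1 libraries. In LNCaP these were 2, 0 and 1 counts with NC-mimic and 1, 8 and 6 counts with piR-4447944 mimic. In 22Rv1 they were 6 counts over the 3 NC and 7 over the 3 piR libraries. ZEB2 (chr2:144364364-144521057, minus strand) had 0 counts in all 6 LNCaP libraries. In 22Rv1 it had 1 count over the 3 NC libraries and 20 over the 3 piR libraries, of which 7 came from replicate 1, 13 from replicate 3 and 0 from replicate 2. Neither gene passed the low-count filter in any comparison, so neither was tested in the main fits. With no filter, the mimic against NC-mimic gave log2 fold changes of 2.33 for ZEB1 in LNCaP (SE 1.23, unadjusted p = 0.0583, edgeR) and 0.16 in 22Rv1 (SE 1.90). For ZEB2 in 22Rv1 it gave 4.11 (SE 2.04, unadjusted p = 0.0640, edgeR), and none was called. With piR-4447944 mimic the pooled counts of ZEB2 were at least 6.79-fold higher in 22Rv1, taking 3 counts over the LNCaP group as the limit of detection. This bound covers counting error only and not the spread between libraries. Replicate 2 of 22Rv1 had 0 counts, as the LNCaP libraries did, so the lines overlapped.

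The miR-200 family and its seed matches in ZEB1 and ZEB2 are shown because both near-silent members hold many of these sites. Mature miRNAs were not measured in these mRNA libraries. RefSeq mature sequences are given 5′ to 3′ with the seed, bases 2 to 8, in capitals, and the family falls into 2 seeds.
hsa-miR-200b-3p: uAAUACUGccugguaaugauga
hsa-miR-200c-3p: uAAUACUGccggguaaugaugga
hsa-miR-429: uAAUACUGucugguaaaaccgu
hsa-miR-200a-3p: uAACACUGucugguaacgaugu
hsa-miR-141-3p: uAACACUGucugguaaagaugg
The DNA letters that pair with these seeds are CAGTATT and CAGTGTT, searched on the transcript strand of the 3′UTR of 1 transcript per gene (the canonical one of GENCODE v44, hg38). ZEB1 held 6 and 3 matches and ZEB2 held 5 and 4 matches. Of 19527 3′UTRs, 16.0% held CAGTATT, 18.2% held CAGTGTT, and 8 (0.041%) held at least 9 matches in all. FN1 held 2 matches and SNAI2 1 match, all to CAGTATT. ESRP1 held 1 match to each motif, and CDH1, CDH2, VIM, SNAI1 and TWIST1 held 0. The first match of each kind along the 3′UTR is given with its neighbouring bases, the match in capitals. The ZEB1 sites lie in its last exon, exon 9 of 9, and the ZEB2 sites in exon 10 of 10.
ZEB1, chr10:31527622-31527650, plus strand: ttttatcttatCAGTATTatcactcttat
ZEB1, chr10:31528035-31528063, plus strand: atcatcagaatCAGTGTTtgtgattgtgt
ZEB2, chr2:144389042-144389070, minus strand: ctaccatacatCAGTATTtttattattat
ZEB2, chr2:144389226-144389254, minus strand: aaaattttgtaCAGTGTTaaggcctaaaa

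To examine whether piR-4447944 mimic altered the EMT genes, the mimic was compared with NC-mimic within each line. A gene was called at an unadjusted p under 0.05 with an absolute log2 fold change over 0.2, limits that the study set on shrunken fold changes of DESeq2 and that are put here on unshrunken values of edgeR. No member was called in either line. The low-count filter left 6 members in LNCaP, of which 0 were called by edgeR's quasi-likelihood test, where 2.22% of 16244 genes were. In 22Rv1 7 members passed, and 0 were called, where 1.48% of 16898 genes were. No tested member had an unadjusted p under 0.05 in either line, and DESeq2 and limma also called 0. FN1, the most abundant mesenchymal member in LNCaP, had CPM of 560, 561 and 548 with NC-mimic and of 533, 499.7 and 531 with piR-4447944 mimic. The 2 groups did not overlap in CPM, although they did in TPM, and CPM groups that did not overlap were found for 7.86% of the genes tested in LNCaP. The log2 fold change was −0.10 with an SE of 0.06 and a Benjamini-Hochberg adjusted p = 0.999 (edgeR). CDH1 differed by 0.00 on the log2 scale in LNCaP, with an SE of 0.06, and by −0.04 in 22Rv1, with an SE of 0.17.

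The 22Rv1 libraries varied more than those of LNCaP, the biological coefficient of variation being 0.343 and 0.0964 respectively, and the SE of the members were accordingly larger. VIM had a log2 fold change of 0.03 with an SE of 0.70, and FN1 one of −0.28 with an SE of 0.88. Without replicate 3 of both groups these became 0.12 for VIM and −0.26 for FN1, so the high values of replicate 3 were present on both sides of the comparison. Leaving out the third library of only 1 group moved FN1 between −1.55 (without the piR library) and 1.01 (without the NC library), and VIM between −0.85 and 1.00. ESRP1 had a log2 fold change of 0.25 with an SE of 0.15 (adjusted p = 0.999, edgeR), and TWIST1 one of 0.27 with an SE of 0.28. SNAI1 was lower on average with the mimic in both lines, by −0.61 in LNCaP (SE 0.36) and by −1.12 in 22Rv1 (SE 0.99), on few counts and with an adjusted p = 0.999 in both (edgeR). Without NC replicate 3 of the line these were −0.24 and −0.27, and without replicate 3 of both groups the 22Rv1 value was −0.17. CPM groups did not overlap for 8.79% of the genes tested in 22Rv1, and for 0 of the 7 members. In 22Rv1 the deviations of same-numbered libraries were weakly correlated (0.139, 0.126 and 0.294 for replicates 1, 2 and 3). With the replicate number as a block the genes called in 22Rv1 rose from 250 to 420 in all, with the members still at 0.

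**Figure D2:**
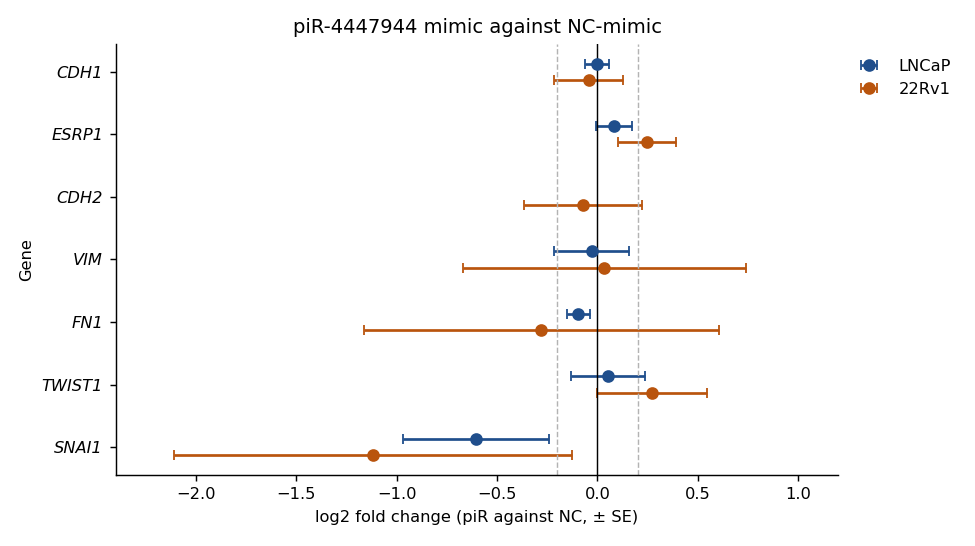
Log2 fold change of piR-4447944 mimic against NC-mimic for the members that passed the low-count filter (edgeR, bars are SE, 3 against 3 libraries). Dashed lines mark the fold change limit of 0.2 on either side. CDH1 was at 0.00 in LNCaP and −0.04 in 22Rv1, SNAI1 was lowest in both lines, and the bars of VIM and FN1 in 22Rv1 spanned 0.

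Over both lines together, 0 of 8 tested members were called by the same limits, where 1.54% of 18720 genes were. FN1 had a log2 fold change of −0.17 (SE 0.46), ESRP1 one of 0.17 (SE 0.09) and SNAI1 one of −0.83 (SE 0.52), none with an unadjusted p under 0.05 (edgeR). Without the second NC library of LNCaP ESRP1 was called at 0.21, and without the first NC library of 22Rv1 SNAI1 was called at −1.05. The difference of the mimic effect between the lines was also called for 0 of 8 members, where 3.26% of genes were called, and for CDH2, at 0 in LNCaP, it could not be estimated.

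The members differed far more between the lines than between the mimics. The line contrast was fitted separately in the NC and the piR libraries, so the 2 fits share no library. A gene was called at an adjusted p under 0.05 with an absolute log2 fold change over 1. With NC-mimic 4 of 7 tested members were called, 3 higher in 22Rv1 and 1 lower, where 34.5% of 17497 genes were called (19.1% higher and 15.4% lower). With piR-4447944 mimic 5 of 7 were called, 4 higher and 1 lower, where 32.7% of 17283 genes were called (18.8% higher and 13.9% lower). The share of members called is read against these shares of all genes, and the values of each gene carry the description.

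CDH2 was at least 180-fold higher in 22Rv1 with NC-mimic and at least 153-fold higher with piR-4447944 mimic, taking 3 counts over the LNCaP group as the limit of detection. VIM was 7.42-fold higher in 22Rv1 with NC-mimic (log2 fold change 2.89, SE 0.55, adjusted p = 0.00236) and 7.95-fold higher with piR-4447944 mimic (2.99, SE 0.57, adjusted p = 0.00457, edgeR). Without replicate 3 of both lines the log2 fold changes of VIM were 2.06 and 2.21. FN1 was 13.8-fold lower in 22Rv1 with NC-mimic (log2 fold change −3.78, SE 0.64, adjusted p = 0.00134) and 15.1-fold lower with piR-4447944 mimic (−3.92, SE 0.72, adjusted p = 0.00382, edgeR). Without replicate 3 of both lines the gap in FN1 was larger, at −5.08 and −5.21. VIM and FN1 thus stood on opposite sides of 0 in each of these fits.

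CDH1 was 1.85-fold lower in 22Rv1 with NC-mimic (log2 fold change −0.89, SE 0.12, adjusted p = 0.000325) and 1.88-fold lower with piR-4447944 mimic (−0.91, SE 0.14, adjusted p = 0.00199, edgeR), short of the fold limit. Without replicate 3 of both lines it passed the limit, at −1.06 and −1.07. ESRP1 was 1.83-fold higher in 22Rv1 with NC-mimic (0.87, SE 0.11, adjusted p = 0.000354) and 2.08-fold higher with piR-4447944 mimic (1.05, SE 0.13, adjusted p = 0.000749, edgeR). It was therefore called with piR-4447944 mimic alone, and without replicate 3 of both lines, at 0.91, it was not. A CDH1 level that was lower in 22Rv1 was accompanied by an ESRP1 level that was higher.

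TWIST1 was 2.07-fold higher in 22Rv1 with NC-mimic (log2 fold change 1.05, SE 0.30, adjusted p = 0.0161) and 2.43-fold higher with piR-4447944 mimic (1.28, SE 0.16, adjusted p = 0.000813, edgeR). With NC-mimic the call was lost when NC replicate 2 or 3 of LNCaP or the first or second NC library of 22Rv1 was left out, with values from 0.86 to 1.06, and on log2(TPM + 1) with limma (0.70). SNAI1 was lower in 22Rv1 by −1.10 with NC-mimic (SE 0.78, adjusted p = 0.260) and by −1.55 with piR-4447944 mimic (SE 0.56, adjusted p = 0.0524, edgeR), and was not called. It was called without the third NC library of 22Rv1, at −1.98, and without the second piR library of 22Rv1, at −2.14. Bulk libraries cannot tell fewer cells with a transcript from less of it in each cell.

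**Figure D3:**
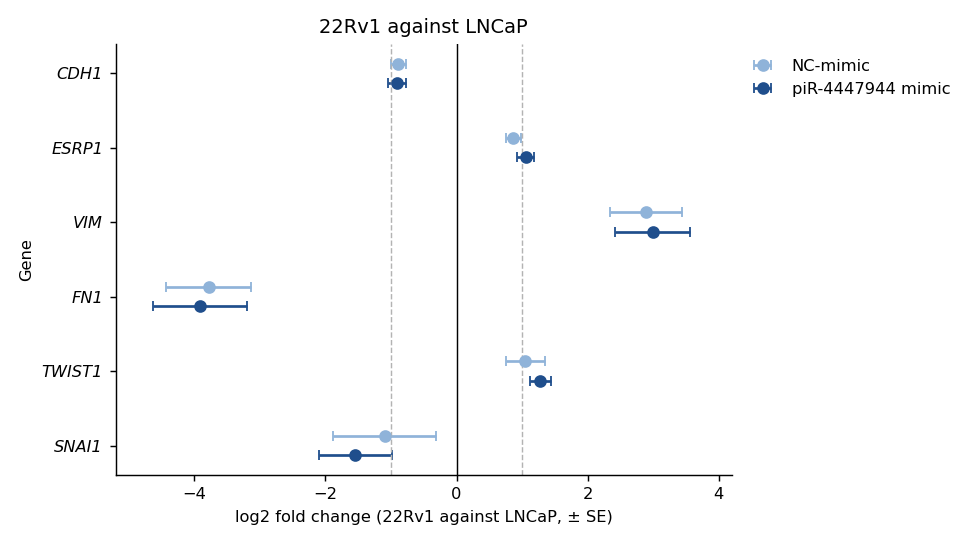
Log2 fold change of 22Rv1 against LNCaP for 6 members, fitted separately in the NC and the piR libraries (edgeR, bars are SE, 3 against 3 libraries), with dashed lines at the limit of 1 on either side. VIM lay near 2.9 to 3.0, FN1 near −3.8 to −3.9, and CDH1 and ESRP1 on either side of 0. CDH2, at 0 in LNCaP, is left out because its fold has a lower bound only.

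FN1 in 22Rv1 depended on the scale it was read on. In TPM its mean was 1.96 times as high with piR-4447944 mimic as with NC-mimic, whereas in CPM it was 0.832 times as high. The mean transcript length that RSEM assigned to FN1, by which TPM are scaled, was 4219, 5624 and 7382 bases in the NC libraries and 2538, 4629 and 2989 bases in the piR libraries. In LNCaP this length stayed between 5623 and 6250 bases, and the ratio was 0.940 in TPM and 0.937 in CPM. In replicate 3 of 22Rv1 FN1 was 15.6 TPM and 90.1 CPM with NC-mimic but 36.1 TPM and 74.9 CPM with piR-4447944 mimic, so the order of these 2 libraries was reversed between the scales. On log2(TPM + 1) with limma the log2 fold change of FN1 was 0.57, against −0.28 in the fit of counts, and neither passed the rule. FN1 gives rise to many splice isoforms, and which isoforms were present was not analysed here.

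**Figure D4:**
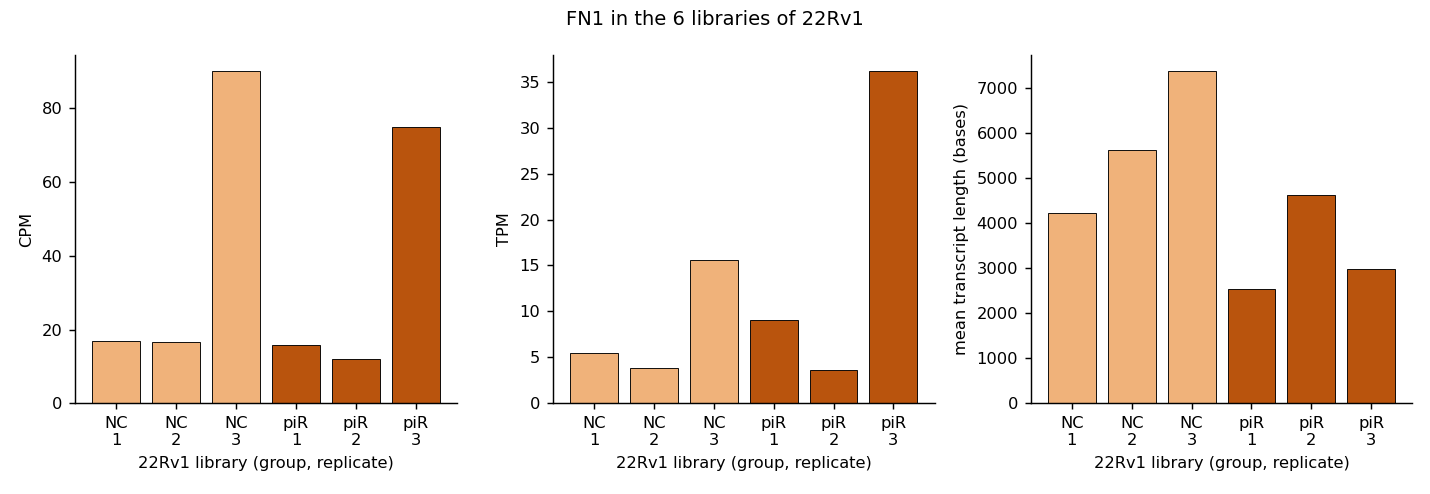
FN1 in the 6 libraries of 22Rv1 as CPM (left), TPM (middle) and the mean transcript length in bases used for TPM (right), with 1 bar per library from 0. Replicate 3 is highest in CPM and in TPM within each group, but the NC library leads in CPM (90.1 against 74.9) and the piR library in TPM (36.1 against 15.6), where its length is 2989 against 7382 bases.

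Replicate 3 of 22Rv1 was compared with replicates 1 and 2 over both groups as a description, chosen after the values were seen. VIM was at 87.0 and 93.9 TPM in replicate 3 and between 19.9 and 30.0 TPM in the others, a mean log2 difference of 1.90 in CPM. FN1 had a mean log2 difference of 2.39. CDH1 was also higher, by 0.39, and CDH2 by 0.46, so the epithelial and the mesenchymal cadherin were both higher in replicate 3. TWIST1 was lower in CPM (10.8 and 18.3 against 19.8 to 22.7) but not in TPM, where the piR library was the highest of the line. Of 19 tested mesenchymal, matrix and protease genes 8 were higher in both of these libraries with a mean log2 difference over 1, and 0 were lower, where 6.57% of all tested genes were higher and 3.25% lower. They were TAGLN, COL1A1, COL6A1, LOX, LOXL2, ITGA5, WNT5A and LGALS1. Of 28 junction genes 1 was higher (DSC2), and of 12 epithelial factors 1 was higher, ELF3, at 292 and 423 TPM against 52.6 to 61.9 TPM. In the TGF-beta pathway, an inducer of EMT, 3 of 16 were higher (TGFB1, ENG and BAMBI) and 0 lower. The sum of 7 fibroblast markers was 17.3 and 27.9 TPM in these libraries and between 8.10 and 13.3 TPM in the others. The sum of 6 leukocyte markers was 4.41 and 11.1 TPM against 1.98 to 7.38 TPM, and that of 4 basal markers 1.02 and 5.06 TPM against 0.58 to 1.11 TPM. The part of these markers in the result was not tested.

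**Figure D5:**
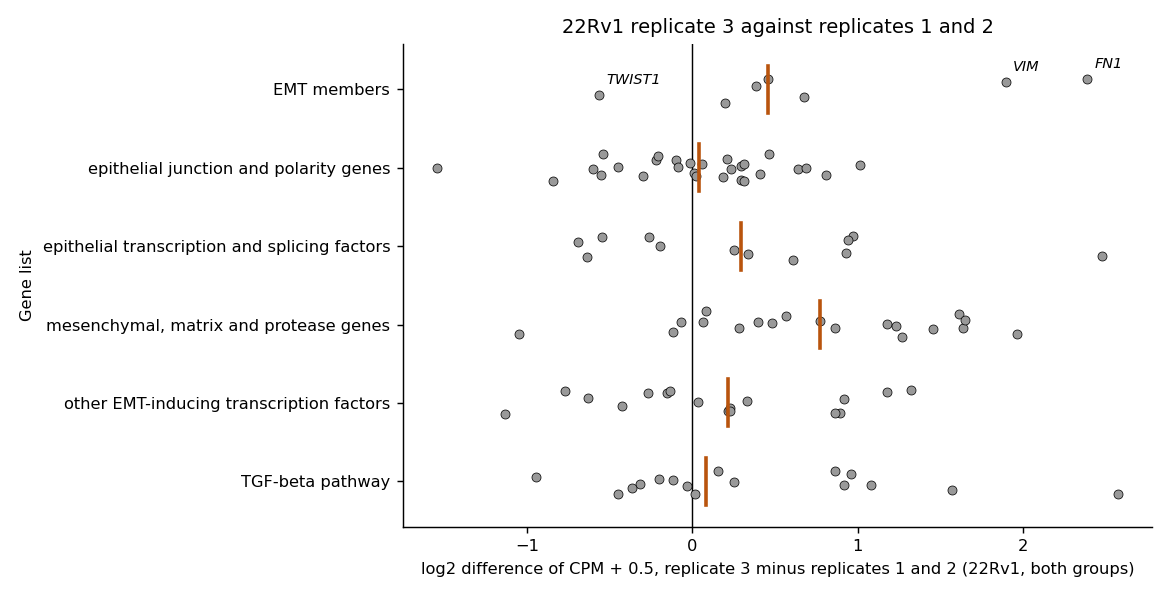
Log2 difference in CPM + 0.5 between replicate 3 and replicates 1 and 2 of 22Rv1, both groups together, for the members and 5 gene lists. Each point is a gene that passed the low-count filter, vertical position within a list is random, and the thick bars are medians. The median was 0.77 for mesenchymal, matrix and protease genes and 0.04 for junction genes, and VIM and FN1 lay at 1.90 and 2.39. The list labelled other EMT-inducing transcription factors is called other EMT-related factors in the text.

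Wider lists of EMT-related genes were examined in the same fits, by the same limits. In LNCaP, the mimic was followed by a lower DSC2, a desmosomal cadherin (log2 fold change −0.29, SE 0.09), which was the only one of 29 junction genes called, although its CPM overlapped between the groups. KLF4, a transcription factor of differentiated epithelium, was at 3.42 to 4.19 TPM with NC-mimic and at 5.51 to 9.42 TPM with piR-4447944 mimic (log2 fold change 0.42, SE 0.15), and was the only one called of 11 epithelial factors tested. GSC, a homeobox factor that can induce EMT, was at 6.17 to 7.35 TPM with NC-mimic and at 9.49 to 10.2 TPM with piR-4447944 mimic (log2 fold change 0.54, SE 0.18). It was the only one called of 16 other EMT-related factors. All 3 had an adjusted p = 0.999 (edgeR), and with the shrunken fold changes of DESeq2 (−0.15, 0.088 and 0.085) none was called. All 3 calls were also lost in the fit of all 12 libraries, and that of DSC2 with limma at either pseudocount. The call of KLF4 was lost without piR replicate 1 (0.37) and without replicate 3 of both groups (0.38), and that of GSC without NC replicate 1 (0.45). These counts stand beside 2.22% of all genes called in LNCaP, near which 1 of 29 lies, and 0 of 17 mesenchymal genes and 0 of 14 TGF-beta genes were called. Over both lines S100A4, a calcium-binding protein of motile cells, was the only list gene called (log2 fold change −1.61, SE 0.72), with 12, 15 and 15 counts in LNCaP with NC-mimic and 8, 6 and 7 with piR-4447944 mimic, and 6, 2 and 26 against 0, 3 and 3 counts in 22Rv1. Without NC replicate 3 of 22Rv1 its value was −0.77 and the call was lost, as it was with the replicate block (−1.36) and in 7 of the other 11 fits that left out 1 library. GSC was the only list gene called for the difference of the mimic effect between the lines, with 0 counts in the 3 NC libraries of 22Rv1 and 6, 0 and 8 counts in the piR libraries. In 22Rv1, 0 of 28 junction genes, 0 of 12 epithelial factors, 0 of 19 mesenchymal genes, 0 of 17 other EMT-related factors and 0 of 16 TGF-beta genes were called. The median log2 fold changes were between −0.03 and 0.01 in LNCaP and between 0.03 and 0.17 in 22Rv1, where that of all tested genes was −0.00 and −0.01.

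Between the lines, genes called in both fits, with NC-mimic and with the piR mimic, were counted for each list, beside 16.2% of 16862 genes tested in both fits that were called higher in 22Rv1 in each and 12.1% that were called lower. Of 29 junction genes tested 3 were called higher in 22Rv1 with both mimics (CDH3, CD24 and KRT19) and 6 lower (OCLN, TJP1, MARVELD2, DSC2, ST14 and RAB25). KRT19, a keratin, had log2 fold changes of 6.55 in the NC and 7.40 in the piR libraries, CDH3, the placental cadherin, had 5.96 and 6.14, and RAB25, a GTPase of epithelial membrane traffic, had −5.81 and −7.87. Of 12 epithelial factors 4 were called higher (KLF4, KLF5, TFCP2L1 and SPDEF) and 0 lower, while FOXA1, a pioneer factor of luminal cells, was lower by less than the fold limit (−0.67 and −0.59, adjusted p = 0.000248 and adjusted p = 0.00380, edgeR). The largest differences were those of TFCP2L1 (5.30 and 5.43), KLF5 (3.24 and 3.52) and KLF4 (2.78 and 2.58). Of 30 mesenchymal genes, 19 of them tested in both fits, 6 were higher (TNC, LOX, LOXL2, MMP14, CD44 and LGALS1) and 4 lower (COL5A1, COL6A1, ITGB1 and WNT5A). CD44, the hyaluronan receptor, was at 56.3 to 68.6 TPM in 22Rv1 and at 0 to 0.18 TPM in LNCaP with NC-mimic, LGALS1, a galectin, at 649 to 1365 against 1.62 to 2.90 TPM, and TNC, a matrix glycoprotein, at 22.2 to 30.2 against 0.59 to 0.79 TPM.

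Of 22 other EMT-related factors, not all of them inducers of EMT, 19 were tested in both fits. Of these, 9 were higher in 22Rv1 with both mimics (PRRX1, FOXC1, TCF4, SOX9, HMGA2, ID1, ID2, ID3 and WWTR1) and 2 lower (GSC and ETS1). HMGA2, a chromatin protein, had 0 counts in LNCaP and was at least 158-fold and 123-fold higher in the NC and the piR libraries of 22Rv1. ETS1 had 0 counts in 22Rv1 and was at least 35.1-fold and 29.1-fold higher in LNCaP. GSC had 0 counts in the NC libraries of 22Rv1, and was at least 75.8-fold higher in LNCaP with NC-mimic. In the TGF-beta pathway the ligands TGFB1 (6.52 and 7.60) and TGFB3 (4.36 and 4.74) were higher in 22Rv1, and the co-receptor TGFBR3 (−2.67 and −2.42) and the pseudoreceptor BAMBI lower. Since line and culture cannot be told apart, these values describe the 2 cultures.

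The genes whose pattern was most like that of CDH1 over the 12 libraries, after the mean of each line was taken off, were ZNF300, SBF2 and BTG1 (Pearson r 0.968, 0.966 and 0.966 among 12498 genes). For VIM they were SH3BP5, NR4A1 and GADD45A (r 0.989, 0.981 and 0.980). These correlations are descriptions over libraries that the genes share, replicate 3 of 22Rv1 among them.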

How the data were processed

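Alignment by the authors used STAR 2.7.1a against hg38, and quantification used RSEM 1.3.0. The annotation release, trimming, strand and read length were not given in the sources used here. The deposited expected counts are RSEM's estimates of the reads from a gene, not normalized, in which a read that maps to several genes is divided among them. The deposited TPM are relative to effective transcript length and to a fixed sum, so they hold no depth. The mean transcript lengths that the authors deposited beside them are given in bases. The common TPM table and the single tables differed by 0 at most. There were 0 unused columns of other samples, and 0 pairs of identical libraries.

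Expected counts, rounded to whole numbers, were fitted with edgeR 4.0.16 in R 4.3.3 (TMM, filterByExpr, glmQLFit and glmQLFTest) over all genes, each line or mimic apart, or over 12 libraries with the line as a term. The SE of a fold change came from its size and the F statistic, and adjusted p-values are Benjamini-Hochberg values over all genes tested. CPM are TMM-scaled over 12 libraries. The study's limits on p and fold change, set by its authors on shrunken DESeq2 values, were put on edgeR's unshrunken values for the mimic. An exact two-sided permutation test of 3 against 3 libraries cannot go below 0.1, so none is quoted. Fits were tested on simulated counts. DESeq2 1.42.0, limma 3.58.1 on log2(TPM + 1), which understates the change of low genes, other filters, a replicate block and leaving out libraries were alternatives. Whether same-numbered libraries deviated together was checked by the correlation of their deviations from the group means. It was 0.139, 0.126 and 0.294 in 22Rv1, whose numbers were taken to pair, from the values alone.

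The members and lists were chosen with earlier results of these data known. All 10 members are named, with the list genes called in a mimic comparison and, between the lines, the 3 genes of each list with the largest absolute log2 fold change with NC-mimic among those called in both fits. The 3 genes most like CDH1 and VIM were taken among genes with a mean of at least 5 CPM. Any other gene was chosen on seeing its values. Identifiers of the genes matched GENCODE v44 (hg38) without their version numbers. Sequences came from RefSeq (GRCh38.p14), GENCODE v44 and hg38. Some genes of the marker and junction lists are not reported here.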

Additional observations from a re-analysis of the deposited data

How the results depend on the processing

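With 3 libraries per group, the depth and the spread of 22Rv1 limit what can be seen: ZEB1 and ZEB2 passed no filter on low counts, SNAI2 passed it only in the fits of all 12 libraries, and in 22Rv1 leaving out replicate 3 of 1 group alone turned VIM or FN1, whereas leaving out both kept their direction. The cause of the changes below was not tested. Of 628 fold changes of members under alternatives, 550 kept their direction and their side of the threshold. The members called for the mimic within a line were 0 under every alternative run.

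With no low-count filter the genes called were 891 in LNCaP, 532 in 22Rv1, 770 over both lines and 1035 for the difference between lines. In LNCaP DESeq2 with shrunken fold changes called 3, limma called 656 on log2(TPM + 1) and 639 on log2(TPM + 0.1), the fit of all 12 libraries called 168, and 929 were called without replicate 3 of both groups. In 22Rv1 the corresponding limma counts were 541 and 529, with 1232 in the fit of all 12 libraries and 781 without replicate 3. The difference between lines was called for 1182 genes without replicate 3 of 22Rv1, an alternative that, like leaving out replicate 3 of both lines, was chosen after seeing the data.

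The replicate block raised the genes called in 22Rv1 to 420, reversed SNAI2 over both lines (−0.66) and changed the call of no other member. In LNCaP the correlations that would pair the numbers were 0.0036, 0.000974 and 0.142, and between the lines they did not exceed 0.0779, so these numbers were not taken to pair. The value of LNCaP replicate 3 was, however, no lower than those of 22Rv1 replicates 1 and 2 (0.139 and 0.126), so this choice is uncertain. With the block FN1 over both lines passed the limit on the unadjusted p but not that on the fold, at −0.18.

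Uncalled mimic effects near 0 changed sign. CDH1 in LNCaP became 0.00054 with at least 10 counts in every library, 0.00023 in the fit of all 12 libraries and 0.015 with limma at either pseudocount. TWIST1 in LNCaP became −0.13 with limma at either pseudocount, FN1 in 22Rv1 became 0.57 and 0.61, and VIM over both lines became −0.0053 with no filter. SNAI1 in the difference between lines became 0.49 without replicate 3 of 22Rv1. Between the lines, ESRP1 with piR-4447944 mimic fell short of the limit with limma (0.89) and TWIST1 with NC-mimic did (0.70), while SNAI1 with piR-4447944 mimic passed it with DESeq2 (−1.56).

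Leaving out 1 library at a time gave 284 to 1008 genes called in LNCaP, 183 to 376 in 22Rv1, 295 to 423 over both lines and 407 to 1041 for the difference. The members called over both lines were 0 to 1, and those called between the lines were 3 to 6 with NC-mimic and 5 to 6 with piR-4447944 mimic. In LNCaP the ranges were −0.039 to 0.021 for CDH1, −0.14 to 0.11 for VIM, −0.12 to 0.22 for TWIST1, −0.83 to −0.24 for SNAI1 and −0.0046 to 0.17 for ESRP1. In 22Rv1 they were −0.19 to 0.080 for CDH1, −0.24 to 0.13 for CDH2, −0.85 to 1.00 for VIM, −1.73 to −0.27 for SNAI1 and −1.55 to 1.01 for FN1. Over both lines they were −0.086 to 0.037 for CDH1, −0.25 to 0.13 for CDH2, −0.43 to 0.47 for VIM, −1.42 to 0.63 for SNAI2 and −0.64 to 0.36 for FN1. For the difference between lines they were −0.20 to 0.086 for CDH1, −0.25 to 0.13 for CDH2, −0.82 to 1.04 for VIM, −1.08 to 0.39 for SNAI1, −2.46 to 2.24 for SNAI2, −0.020 to 0.40 for TWIST1 and −1.44 to 1.12 for FN1.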

Other observations

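Noncoding neighbours of the members, named after their values were seen, add 3 further patterns. MIR200CHG (chr12:6963226-6964447, plus strand), the host transcript of miR-200c and miR-141, had 5, 11 and 8 counts in LNCaP with NC-mimic and 23, 13 and 18 counts with piR-4447944 mimic. The groups did not overlap, as was found in CPM for 7.86% of the genes tested in LNCaP. The log2 fold change of 1.36 (SE 0.48, adjusted p = 0.999, edgeR) passed the limits used for the mimic, as 2.22% of those genes did. With the shrunken fold changes of DESeq2 (0.032) it did not, nor without NC replicate 1 (1.08) or piR replicate 1 (1.07). The value for 22Rv1 was −0.08 (SE 0.66), and the difference between the lines, −1.44 (SE 0.82), did not pass them. ZEB2 had 0 counts in all 6 LNCaP libraries, so a fall beside it could not be seen. ZEB1 was also low, at 3 counts over the NC libraries of LNCaP and 15 over its piR libraries. Without the low-count filter its log2 fold change there was 2.33 (SE 1.23, unadjusted p = 0.0583, edgeR), and it was not called. Whether ZEB1 and MIR200CHG changed together was not tested.

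VIM-AS1, a long noncoding RNA that overlaps the start of VIM on the opposite strand (chr10:17214239-17230018), was at 0.32 to 0.45 TPM in LNCaP and at 6.15 to 7.09 TPM in 22Rv1 with NC-mimic, a log2 fold change of 3.96 (SE 0.39, adjusted p = 7.65e-05, edgeR). With piR-4447944 mimic the 22Rv1 libraries were at 8.46, 8.97 and 17.3 TPM, above all 3 NC libraries. The groups did not overlap in CPM either, as for 8.79% of the genes tested in 22Rv1. The log2 fold change was 0.79 (SE 0.37, adjusted p = 0.999, edgeR), which did not pass these limits, and with the replicate block it was 0.71 (adjusted p = 0.869), which did. Whether reads were counted by strand is not given, so reads of VIM and VIM-AS1 may not have been told apart where the genes overlap. ZEB1-AS1, beside the near-silent ZEB1, had means between 7.83 and 10.6 CPM in the 4 groups, with a log2 fold change between the lines of 0.43 (SE 0.25) with NC-mimic and 0.15 (SE 0.20) with piR-4447944 mimic.

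The ratio of CDH1 to VIM in TPM, which sets 1 epithelial against 1 mesenchymal marker, was between 31.1 and 50.7 in the 6 LNCaP libraries. In 22Rv1 it was between 4.21 and 5.41 in replicates 1 and 2 and was 1.73 and 1.75 in replicate 3 of the NC and the piR group. The ratio of CDH1 to FN1 ordered the lines the other way, with 1.82 to 2.24 in LNCaP and 4.55 to 34.9 in 22Rv1.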
